A study of Mus musculus with 4 samples.

Results

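The 10 genes described here are central genes of the unfolded protein response, namely Hspa5, Hsp90b1, Calr, Pdia4, Dnajb9, Herpud1, Xbp1, Atf4, Ddit3 and Trib3. They were taken by their symbols and not by a cut on their values, but earlier results of these data were known when they were chosen. All 10 were found among 23238 gene symbols on the 23282 rows of the heart mRNA-seq data. The data comprised 4 heart libraries of CDF1 mice, a hybrid strain, for which the labels give postnatal day 28. The study bought its mice at about that age and took tissues after the exercise and cancer period, so the hearts may be older than the label says. Sedentary mice without cancer are written E(−)T(−), exercised mice without cancer E(+)T(−), sedentary mice with cancer E(−)T(+) and exercised mice with cancer E(+)T(+), with 10 mice and 1 library in each group. Exercise was high-intensity running on a treadmill, and cancer-bearing mice had received CT26 cells, a murine colorectal cancer line, through the tail vein. The sources used here do not state whether the library of a group came from the heart of 1 mouse or from pooled hearts, so mice of a group cannot be told apart and no difference has a replicate check.

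The unfolded protein response restores protein folding in the endoplasmic reticulum (ER). It is started by the sensors ATF6, IRE1 (encoded by Ern1) and PERK (encoded by Eif2ak3), which sense misfolded protein in the ER lumen. ATF6 and the spliced form of Xbp1, which IRE1 produces, raise the transcription of ER chaperones and of factors that remove misfolded protein, whereas PERK slows translation and favors the translation of Atf4. ATF4 in turn raises the transcription of amino acid synthesis and transport genes, of Ddit3 (CHOP) and of Trib3. Reads of mRNA 3′ ends, as measured here, show the level of a transcript but neither the splicing of Xbp1 nor the translation of Atf4.

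The promoters of 3 of the 10 genes carried the ER stress response element (ERSE), CCAAT and CCACG separated by 9 bases, within 250 bases before to 50 bases after the start of the gene in RefSeq (build GRCm38.p6). It was searched on both strands and was found in 0.119% of 32851 such windows of all genes. The elements are shown because the 3 genes that carry them code for ER chaperones, and the paired capitals mark the CCAAT and CCACG parts.
Hspa5, chr2:34772020-34772048, + strand: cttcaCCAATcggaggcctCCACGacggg
Calr, chr8:84847070-84847098, + strand: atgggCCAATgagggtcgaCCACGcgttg
Hsp90b1, chr10:86705633-86705661, − strand: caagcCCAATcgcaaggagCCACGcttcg
Hsp90b1, chr10:86705528-86705556, + strand: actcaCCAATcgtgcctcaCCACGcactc
The element of Hspa5 lay at −65 to −47 from the RefSeq start, but after the more upstream start at 34771970 that GENCODE gives. That of Calr lay at −162 to −144, and those of Hsp90b1 at −212 to −194 and at −107 to −89.

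The related element ERSE-II, ATTGG and CCACG separated by 1 base, was found in 0.0365% of the windows, and of the 10 genes in Herpud1 alone, at −52 to −42 from the start. A site of the CARE type bound by ATF4 and C/EBP factors, TGATG and AA separated by 1 base, was found in 3.97% of the windows and in Herpud1 and Trib3 among the 10 genes. The capitals below mark the element itself.
Herpud1, ERSE-II, chr8:94386372-94386392, + strand: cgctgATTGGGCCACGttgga
Herpud1, CARE, chr8:94386312-94386329, − strand: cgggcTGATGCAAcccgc
Trib3, CARE, chr2:152344034-152344051, + strand: ccggcTGATGTAAacctg
The UPRE core, TGACGTG followed by G or A, was in 1.12% of the windows and in that of Hspa5. The heat shock element, GAA, TTC and GAA each separated by 2 bases, was in 0.603% of the windows and in none of the 10. These matches describe letters in the sequence and not binding.

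The authors deposited log2(normalized read count + 1) for each gene, from which whole reads were recovered. The recovered totals ran from 6595404 in E(−)T(−) to 11545923 in E(+)T(+), in which globin genes took 37.3% of the reads (95% Clopper-Pearson interval 37.2 to 37.3%) against 7.86% to 8.76% in the other libraries. All 10 cardiomyocyte markers examined, such as Myh6 and Tnnt2, were read in each library, with summed normalized read counts of 471079 to 513246. Differences are given as log2 differences of deposited values, followed in parentheses by the 95% Clopper-Pearson interval of the read ratio. The intervals cover counting error only, since PCR copies are not independent molecules and there is 1 library per group. In these bulk samples, fewer cells of a type and less RNA per cell cannot be told apart.

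Hspa5 (chr2:34771970-34777547, + strand) codes for BiP, the main HSP70 chaperone of the ER lumen. The order E(−)T(−), E(+)T(−), E(−)T(+) and E(+)T(+) gave it 4652, 12192, 6490 and 6242 reads, for deposited log2 values of 12.38, 13.43, 12.48 and 12.74. It was highest in E(+)T(−), and all neighbours in the order of its 4 levels differed by more than counting error. Hsp90b1 (chr10:86690209-86705509, − strand) codes for GRP94, the HSP90 chaperone of the ER. It had 2371, 5201, 2860 and 1779 reads in E(−)T(−), E(+)T(−), E(−)T(+) and E(+)T(+), for log2 values of 11.41, 12.20, 11.30 and 10.93. It too was highest in E(+)T(−), and it was lowest in E(+)T(+). Calr (chr8:84841850-84846934, − strand) codes for calreticulin, a calcium-binding chaperone of glycoproteins. Its reads in the same order were 1652, 3486, 1901 and 1398, for log2 values of 10.89, 11.62, 10.71 and 10.58, so that E(+)T(−) again stood above the 3 other libraries. Pdia4 (chr6:47796141-47813430, − strand) codes for ERp72, an enzyme that forms and rearranges disulfide bonds. It had 155, 332, 100 and 108 reads, for log2 values of 7.48, 8.24, 6.48 and 6.90. Both T(+) libraries lay below both T(−) libraries, and E(+)T(−) was the highest.

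Dnajb9 (chr12:44205559-44210326, − strand) codes for ERdj4, a cochaperone of BiP and a target of XBP1. Its reads were 120, 210, 195 and 100 in E(−)T(−), E(+)T(−), E(−)T(+) and E(+)T(+), and its log2 values were 7.12, 7.58, 7.44 and 6.79. No neighbours in the order of its levels differed beyond counting error. Herpud1 (chr8:94386438-94395377, + strand) codes for a membrane protein of the ER-associated degradation machinery. It had 1259, 1614, 1467 and 1718 reads, for log2 values of 10.50, 10.51, 10.34 and 10.88. It had the smallest range of the 10 genes, 0.54, and was the only one of them with its highest level in E(+)T(+).

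Xbp1 (chr11:5520659-5525893, + strand), the transcription factor activated by IRE1, had 288, 598, 616 and 397 reads in E(−)T(−), E(+)T(−), E(−)T(+) and E(+)T(+). Its log2 values were 8.37, 9.08, 9.09 and 8.77, and the 2 highest, those of E(−)T(+) and E(+)T(−), did not differ beyond counting error. Atf4 (chr15:80255184-80257541, + strand), the transcription factor downstream of PERK, had 865, 1902, 2760 and 1716 reads, for log2 values of 9.96, 10.75, 11.25 and 10.88. It was highest in E(−)T(+) and lowest in E(−)T(−), with all neighbours apart beyond counting error. Ddit3 (chr10:127290774-127296288, + strand), which codes for the stress-induced factor CHOP, had 383, 662, 528 and 306 reads, for log2 values of 8.78, 9.23, 8.87 and 8.39. It was highest in E(+)T(−) and lowest in E(+)T(+), while E(−)T(−) and E(−)T(+) did not differ beyond counting error. Trib3 (chr2:152337422-152344032, − strand), which codes for a pseudokinase that restrains ATF4 and AKT signaling, was read at low depth, with 28, 29, 60 and 9 reads. Its log2 values were 5.05, 4.77, 5.76 and 3.46, and its range of 2.30 was the largest of the 10 genes.

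Of the 10 genes, 6 were highest in E(+)T(−), namely Hspa5, Hsp90b1, Calr, Pdia4, Dnajb9 and Ddit3, 3 were highest in E(−)T(+), namely Atf4, Xbp1 and Trib3, and 0 were highest in E(−)T(−). The lowest level was in E(+)T(+) for 5 of them. Of 30 pairs of neighbouring levels, 7 did not differ beyond counting error. Among them were the top pairs of Dnajb9 and Xbp1 and the bottom pair of Dnajb9, so these places are not settled. The shares of all genes highest or lowest in each library are not given here. Annotated genes overlap some of the 10 genes. The pseudogene 1810014B01Rik overlaps Hsp90b1 by 4598 bases on the opposite strand, Mars overlaps Ddit3 by 68 bases, and GENCODE lists a second gene under the symbol Ddit3. Whether the counting used strand is not given in the sources used here, so that reads of such pairs cannot be told apart.

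**Figure D1:**
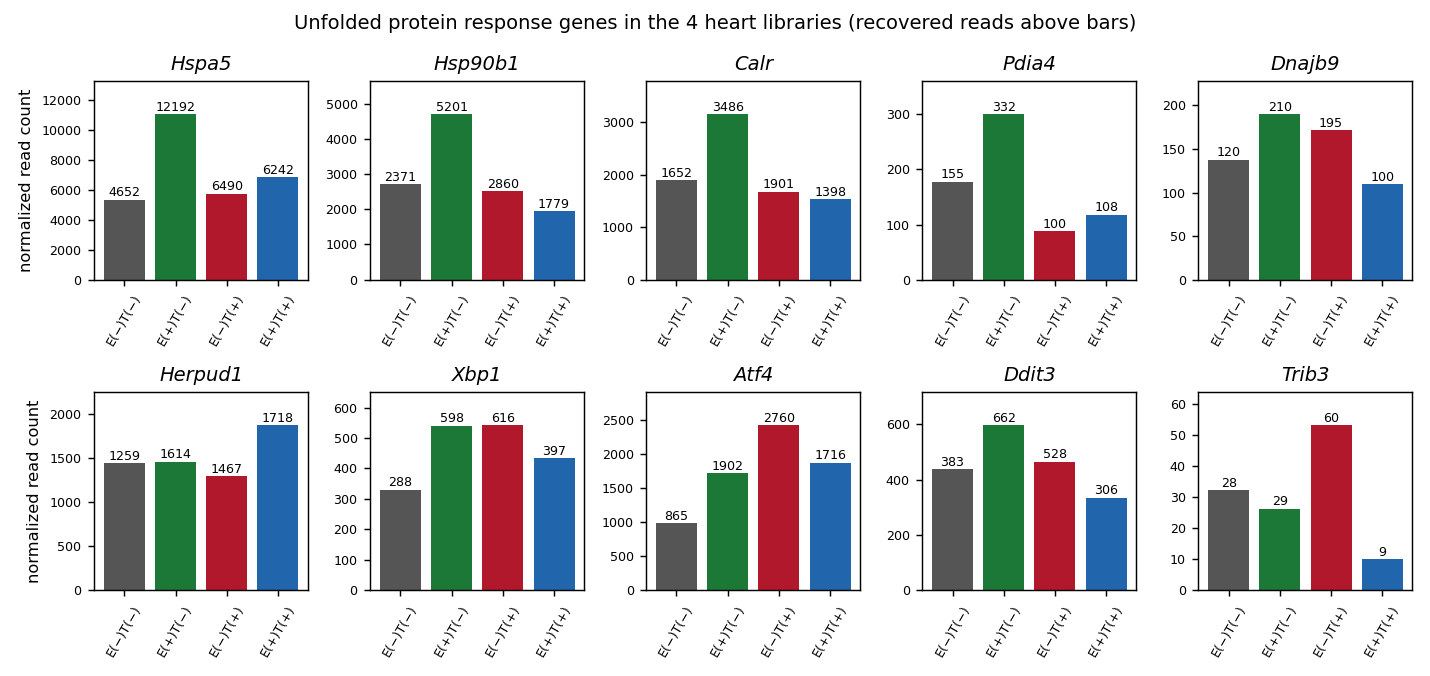
Normalized read counts (y axis, linear, from 0) of the 10 genes in the 4 heart libraries (x axis, 1 bar per library, no replicates), with the number of recovered reads above each bar. The chaperones Hspa5, Hsp90b1, Calr and Pdia4 are highest in E(+)T(−), with 12192 reads of Hspa5 there, whereas Atf4 is highest in E(−)T(+), with 2760 reads.

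The effect of exercise in normal mice was analyzed first [E(+)T(−) vs. E(−)T(−)]. The ER chaperones and folding enzymes Hspa5, Hsp90b1, Calr and Pdia4 were all higher with exercise, by log2 differences of 0.74 to 1.05. Hspa5 was 2.07-fold higher, a log2 difference of 1.05 (0.999 to 1.10), Hsp90b1 was higher by 0.79 (0.72 to 0.86), Pdia4 by 0.76 (0.48 to 1.04) and Calr by 0.74 (0.65 to 0.82). The transcription factors were higher as well, Atf4 by 0.79 (0.68 to 0.91), Xbp1 by 0.71 (0.51 to 0.92) and Ddit3 by 0.45 (0.26 to 0.63). Dnajb9 was higher by 0.46 (0.14 to 0.80). The remaining genes did not differ beyond counting error, with 0.02 (−0.09 to 0.12) for Herpud1 and −0.28 (−1.09 to 0.51) for Trib3.

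A gene was called when its fold change was 2 or more and either library of the comparison reached a normalized read count of 4. In E(+)T(−), 1 of the 10 genes was called higher, namely Hspa5, against 5.88% of 13930 genes and 1.26% of the 7072 genes with a mean of 100 normalized reads or more, which are closer in depth to all of these genes but Trib3. Its lower interval bound lies at the 2-fold threshold. None was called lower, against 6.4% and 0.495%. By an interval that left out 0, 8 of the 10 were higher, against 16.8% of all genes and 23.4% of the deeper ones, and none was lower, against 15% and 16.9%. The median difference was 0.72, while the median over all genes was 0.002. The values of Hspa5, Hsp90b1, Atf4, Pdia4, Calr and Xbp1 stood above those of 90.8% to 94.4% of all genes. All 8 stayed positive under each of the 4 other scalings. Markers of other cells moved in this comparison too. Of the fibroblast markers, 5 of 8 were higher beyond counting error, with a median of 0.39 and with Postn and Col1a1 called, and 5 of 9 macrophage markers were higher, with a median of 0.51. Of the endothelial markers, 6 of 7 were lower beyond counting error, with a median of −0.47, and 7 of 8 adipocyte markers were called lower. The part of these cells was not tested.

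The effect of exercise in cancer-bearing mice was analyzed next [E(+)T(+) vs. E(−)T(+)]. Here 7 of the 10 genes were lower and 3 higher, each beyond counting error. Trib3 was lowest, at −2.30 (−3.62 to −1.41), followed by Dnajb9 at −0.65 (−1.02 to −0.30), Ddit3 at −0.48 (−0.68 to −0.27), Atf4 at −0.38 (−0.46 to −0.29), Hsp90b1 at −0.37 (−0.46 to −0.29), Xbp1 at −0.32 (−0.51 to −0.14) and Calr at −0.13 (−0.23 to −0.03). Herpud1 was higher by 0.54 (0.44 to 0.64), Pdia4 by 0.42 (0.02 to 0.83) and Hspa5 by 0.25 (0.20 to 0.30).

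One of the 10 genes, Trib3, was called lower by 2-fold, on 9 reads against 60, against 10% of 14357 genes and 2.84% of the deeper ones, and none was called higher, against 9.39% and 3.24%. Trib3 itself is not among the deeper genes, so their share is not matched to its depth. By the interval, 7 were lower, against 23.3% of all genes and 27.9% of the deeper ones, and 3 were higher, against 23.5% and 32.3%. The median difference was −0.35, and that over all genes was −0.01. The sign of the 3 positive differences depends on the scaling. Library size scaling counts globin reads in the total and put the median of all genes at −0.59. There they were −0.05 for Herpud1, −0.16 for Pdia4 and −0.33 for Hspa5, that is 0.54, 0.42 and 0.26 relative to that median. The markers of erythroid cells moved in this comparison, with all 10 higher by at least 2-fold and a median of 3.08. So did those of fibroblasts and macrophages, with 5 of 8 and 5 of 9 called lower, and of adipocytes, with 7 of 8 called higher. All 7 neutrophil markers were higher, 4 of them called, with a median of 1.02. Of the endothelial markers, 6 of 7 were higher and 1 lower beyond counting error, with none called and a median of 0.45. The part of these cells in the differences was not tested.

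**Figure D2:**
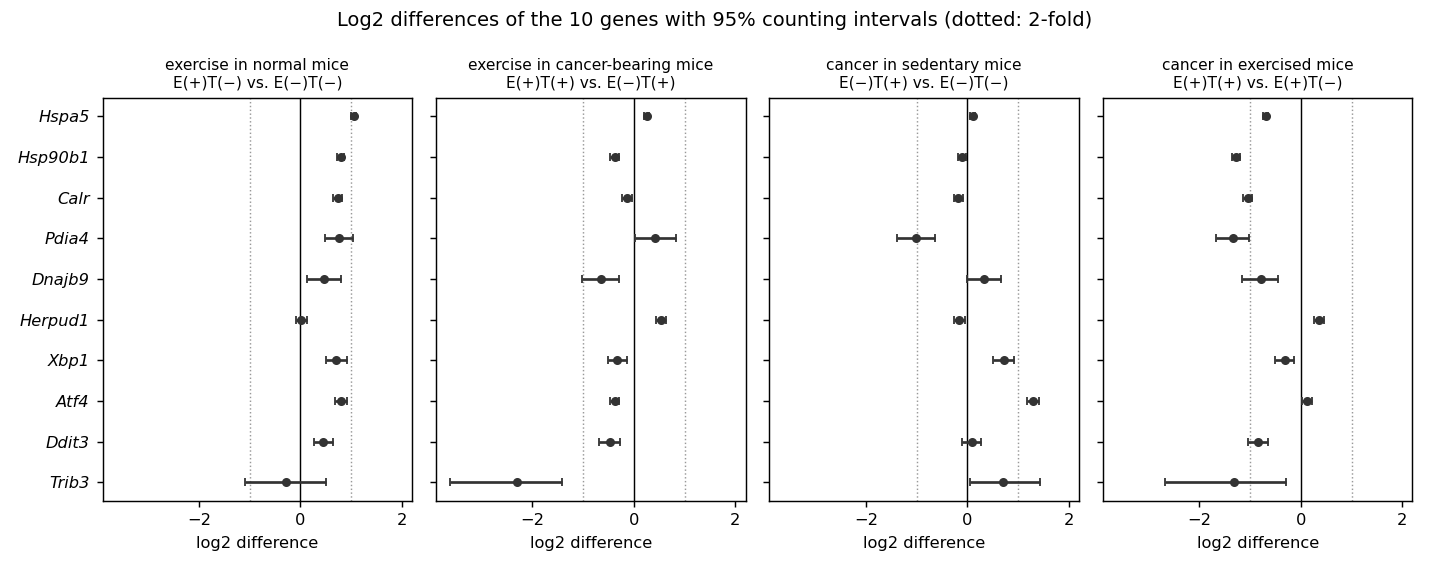
Log2 differences (x axis) of the 10 genes (y axis) in the 4 comparisons, 1 panel each, with bars for 95% counting intervals, a solid line at 0 and dotted lines at 2-fold. The points of the chaperones and of Atf4, Xbp1 and Ddit3 lie to the right of 0 with exercise in normal mice, and all but Hspa5, Pdia4 and Herpud1 lie to the left of 0 with exercise in cancer-bearing mice.

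The exercise comparisons use different libraries, so that their values can be set side by side. In 9 of the 10 genes, all but Herpud1, the difference with exercise was lower in cancer-bearing than in normal mice. The share of all genes with a lower difference is not given here, so this count has no background. For Pdia4 the intervals of the 2 comparisons overlapped, at 0.48 to 1.04 and 0.02 to 0.83. Trib3 had 9 reads in E(+)T(+), and its interval in normal mice included 0. For 6 genes, namely Hsp90b1, Calr, Dnajb9, Xbp1, Atf4 and Ddit3, it was positive in normal mice and negative in cancer-bearing mice, beyond counting error in both. An opposite pair of this kind, in either order, was seen in 8.34% of 13384 genes and in 12.3% of the deeper ones. With 1 library per group, the difference between the exercise effects itself was not tested.

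**Figure D3:**
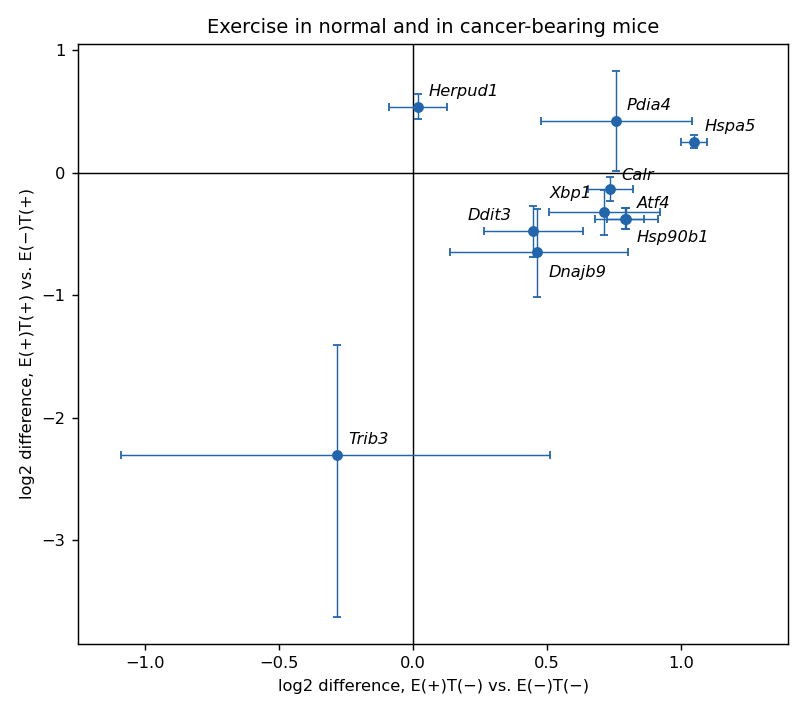
Log2 difference with exercise in normal mice (x axis) against that in cancer-bearing mice (y axis) for the 10 genes, with 95% counting intervals as bars. The 6 genes with opposite signs lie at the lower right, Hspa5 and Pdia4 in the upper right, and Trib3 stands apart at −2.30 on the y axis.

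The effect of cancer in sedentary mice was analyzed in the same way [E(−)T(+) vs. E(−)T(−)]. Of the transcription factors, Atf4 and Xbp1 were higher and Ddit3 did not differ beyond counting error, and of the 4 chaperones and folding enzymes 1 was higher and 3 were lower. Atf4 was 2.45-fold higher, a log2 difference of 1.30 (1.19 to 1.41), and Xbp1 was higher by 0.72 (0.51 to 0.93) and Trib3 by 0.71 (0.05 to 1.42). Hspa5 was higher by 0.10 (0.05 to 0.16), while Hsp90b1 was lower at −0.11 (−0.19 to −0.03), Herpud1 at −0.16 (−0.27 to −0.05) and Calr at −0.18 (−0.27 to −0.08). Pdia4 stood at −1.005 (−1.39 to −0.64), a fall to 100 reads from 155 at a larger library size. Ddit3, at 0.08 (−0.11 to 0.28), and Dnajb9, at 0.32 (−0.01 to 0.66), did not differ beyond counting error.

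Atf4 was called higher by 2-fold, against 14.6% of 14311 genes and 7.59% of the deeper ones, and Pdia4 lower, against 13.1% and 6.93%. With a pseudocount of 4, the difference of Pdia4 no longer reached 2-fold. By the interval, 4 genes were higher and 4 lower, against 27.9% and 28.1% of all genes and 35.4% and 34.8% of the deeper ones. The median difference was 0.09, near that of all genes at −0.01, and it was below 0 under the 3 scalings to read totals, which put the median of all genes at −0.16 to −0.18. The sign of Hspa5 was also lost there, at −0.05 to −0.07, as was that of Ddit3.

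The effect of cancer in exercised mice [E(+)T(+) vs. E(+)T(−)] shares a library with each of the exercise comparisons above. Hspa5, Hsp90b1, Calr and Pdia4 were all lower in E(+)T(+), by log2 differences of −0.69 to −1.34. Pdia4 stood at −1.34 (−1.67 to −1.03), Hsp90b1 at −1.27 (−1.35 to −1.20), Calr at −1.04 (−1.13 to −0.95) and Hspa5 at −0.69 (−0.74 to −0.65). Ddit3 was lower at −0.84 (−1.04 to −0.64), Dnajb9 at −0.79 (−1.15 to −0.45), Xbp1 at −0.32 (−0.50 to −0.13) and Trib3 at −1.31 (−2.68 to −0.30). Herpud1 was higher by 0.36 (0.27 to 0.46) and Atf4 by 0.13 (0.03 to 0.22).

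In this comparison, 4 genes were called lower by 2-fold, namely Hsp90b1, Calr, Pdia4 and Trib3, against 11.1% of 14282 genes and 4.51% of the deeper ones, and none higher, against 12% and 4.54%. Of these 4, Trib3 is not among the deeper genes. By the interval, 8 were lower, against 25.7% of all genes and 30.8% of the deeper ones, and 2 were higher, against 26.8% and 34.8%. The median difference was −0.81, against −0.01 over all genes. Library size scaling put the median of all genes at −0.72 and turned Atf4 to −0.59 and Herpud1 to −0.36, and the scalings without abundant genes or without globin genes turned Atf4 to −0.05. All 10 erythroid markers were called higher here, with a median of 3.13, as were 7 of 7 neutrophil markers, 5 of 8 adipocyte markers and 2 of 7 endothelial markers. Fibroblast markers were lower, with 4 of 8 called and a median of −0.78. The part of these cells was not tested.

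The other genes of the pathway were taken from lists written from general knowledge. Of 22 other ER chaperones and folding enzymes, 18 were higher with exercise in normal mice, 11 of them beyond counting error, against 16.8% of all genes, and the median was 0.31. Sdf2l1, a cofactor of BiP, was higher by 1.82 (1.43 to 2.27) on 272 reads against 60. Manf, a secreted factor held in the ER by BiP, was higher by 1.31 (1.15 to 1.48), and Hyou1, the nucleotide exchange factor of BiP, by 1.08 (0.76 to 1.43). These 3 genes were the only ones of the list called higher by 2-fold, against 5.88% of all genes, and none was called lower, against 6.4%.

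In cancer-bearing mice, 14 of these 22 genes were lower with exercise and the median was −0.12. Txndc11, at 1.25 (0.89 to 1.63), was the only one called, against 9.39% of all genes called higher and 10% lower. Ppib, a prolyl isomerase of the ER, stood at −0.76 (−0.92 to −0.59) and P4hb, a disulfide isomerase and subunit of the collagen prolyl hydroxylase, at −0.71 (−0.82 to −0.59). With cancer in sedentary mice, 11 were higher and 11 lower. Of these, 2 were called higher and 2 lower, against 14.6% and 13.1% of all genes. Dnajc3, a cochaperone also known as an inhibitor of PERK, was higher by 1.37 (1.23 to 1.51) and P4hb by 1.04 (0.91 to 1.17), while Creld2 stood at −1.10 (−1.66 to −0.57). The fourth gene called there, Ero1lb, was named after its values were seen and had 4 reads against 13. With cancer in exercised mice, 17 were lower and 6 of them were called, against 11.1% of all genes called lower. Sdf2l1 stood at −1.99 (−2.45 to −1.59), Creld2 at −1.77 (−2.28 to −1.33) and Manf at −1.34 (−1.51 to −1.18). Fibroblasts make much collagen, and their 8 markers had summed normalized read counts of 25618, 30628, 55390 and 32252 in E(−)T(−), E(+)T(−), E(−)T(+) and E(+)T(+), with none at 0. Their part in the differences of P4hb and Ppib was not tested.

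Of 17 genes that carry proteins into the ER, 15 were higher with exercise in normal mice, against 50.3% of all genes. Of these, 10 were higher beyond counting error, against 16.8%, and the median was 0.26. In cancer-bearing mice 13 were lower with exercise, 8 beyond counting error, against 23.3% of all genes, with a median of −0.22. Sec61b, a subunit of the translocation channel, was higher by 0.70 (0.44 to 0.96) in the former and stood at −0.57 (−0.83 to −0.31) in the latter. With cancer in sedentary mice, 14 were higher, against 49.4% of all genes. Only 1 of the 17 was called higher, against 14.6% of all genes, and none lower, against 13.1%. The gene called was Ssr4, of the translocon-associated complex, at 1.25 (1.13 to 1.38). Of the genes for ER-associated degradation, 12 of 20 were higher with exercise in normal mice and 16 of 21 were lower with exercise in cancer-bearing mice, with none called in either. Over all genes, 5.88% and 9.39% were called higher in these comparisons, and 6.4% and 10% lower. The ubiquitin ligase gene Syvn1 was higher by 0.31 (0.02 to 0.60) in the former and stood at −0.61 (−1.05 to −0.20) in the latter. With cancer in sedentary mice, 15 of 21 genes for ER-associated degradation were higher, with a median of 0.36. There 2 were called higher and none lower, against 14.6% and 13.1% of all genes. With cancer in exercised mice, 1 was called higher and 1 lower, against 12% and 11.1% of all genes. The one called lower was Syvn1, at −1.55 (−1.97 to −1.19).

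The sensors themselves did not move together. Eif2ak3 (PERK) stood at −0.56 (−1.28 to 0.12) with exercise in normal mice and at −1.20 (−2.35 to −0.30) with exercise in cancer-bearing mice, on 12 reads against 36. Of the proteases that activate ATF6, Mbtps2 was higher by 1.05 (0.35 to 1.88) with cancer in sedentary mice. Ern1 (IRE1), named after its values were seen, had 1, 9, 47 and 6 reads in E(−)T(−), E(+)T(−), E(−)T(+) and E(+)T(+). Its log2 interval with cancer in sedentary mice ran from 2.63 to 10.51, on 47 reads against 1.

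The targets of ATF4 and the integrated stress response were described next. With cancer in sedentary mice, 12 of 26 genes with enough reads were called higher and 3 lower, against 14.6% and 13.1% of all genes, and the median was 0.79. Chac1, which degrades glutathione, had 66 reads against 1 (interval 3.14 to 10.99). Atf3, a stress-induced transcription factor, was higher by 2.52 (2.13 to 2.99), and Psat1, an enzyme of serine synthesis, by 2.27 (1.62 to 3.11). The 3 called lower were Gdf15, Cebpg and Cth, at −1.10, −1.33 and −1.66, and they were named after their values were seen. With exercise in normal mice, 6 of 25 genes were called higher and none lower, against 5.88% and 6.4% of all genes, with a median of 0.41, among them Atf3 at 2.27 (1.87 to 2.75) and Mthfd2, of mitochondrial folate metabolism, at 1.83 (1.18 to 2.67). With exercise in cancer-bearing mice the median was −0.05. There Gdf15, a stress-induced cytokine, stood at −1.47 (−2.40 to −0.74) and Slc7a5, an amino acid transporter, at 1.28 (0.71 to 1.93). With cancer in exercised mice, 6 of 26 were called higher and 3 lower, against 12% and 11.1% of all genes. Their median was 0.20, and under library size scaling it was −0.51 beside −0.72 for all genes.

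Markers of inflammatory, stromal and endothelial cells moved with cancer as well. With cancer in sedentary mice, 7 of 9 macrophage markers were called higher, against 14.6% of all genes, with a median of 1.46. Their summed normalized read counts were 3768, 4902, 8820 and 4682 in E(−)T(−), E(+)T(−), E(−)T(+) and E(+)T(+). Neutrophil markers summed to 124, 84, 3180 and 6111, with 2 of 7 at 0 in E(−)T(−) and 1 in E(+)T(−). B and plasma cells, which hold much Xbp1, had markers that summed to 144, 71, 242 and 144. Of these 9 markers, 3 were at 0 in E(−)T(+) and 1 in E(+)T(+). The sum of E(−)T(+) rested mostly on Sdc1 and Jchain, with 196 and 60 of its 274 reads. These 2 were called higher with cancer in sedentary mice, but 5 of the 9 were called lower and the median was −1.35. Beyond counting error, 2 were higher and 2 lower. Of the endothelial markers, 3 of 7 were called lower with cancer in sedentary mice, against 13.1% of all genes, with a median of −0.575. These markers summed to 7321, 5645, 6286 and 7789, with none at 0. Adipocyte markers summed to 22540, 15665, 13543 and 22609, with 1, 2, 3 and 1 of 9 at 0. Of the 8 with enough reads, 7 were called lower with cancer in sedentary mice, against 13.1% of all genes, with a median of −3.51. The adipocyte markers Adipoq, Car3 and Cidec held 317, 386 and 230 of the 19667 reads of the list in E(−)T(−), so its sum rested mostly on other genes. Ucp1 had 814 reads in E(+)T(+) and 0 in both E(+)T(−) and E(−)T(+). The part of these cells in the levels of Atf4, Xbp1 and the ATF4 targets was not tested.

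**Figure D4:**
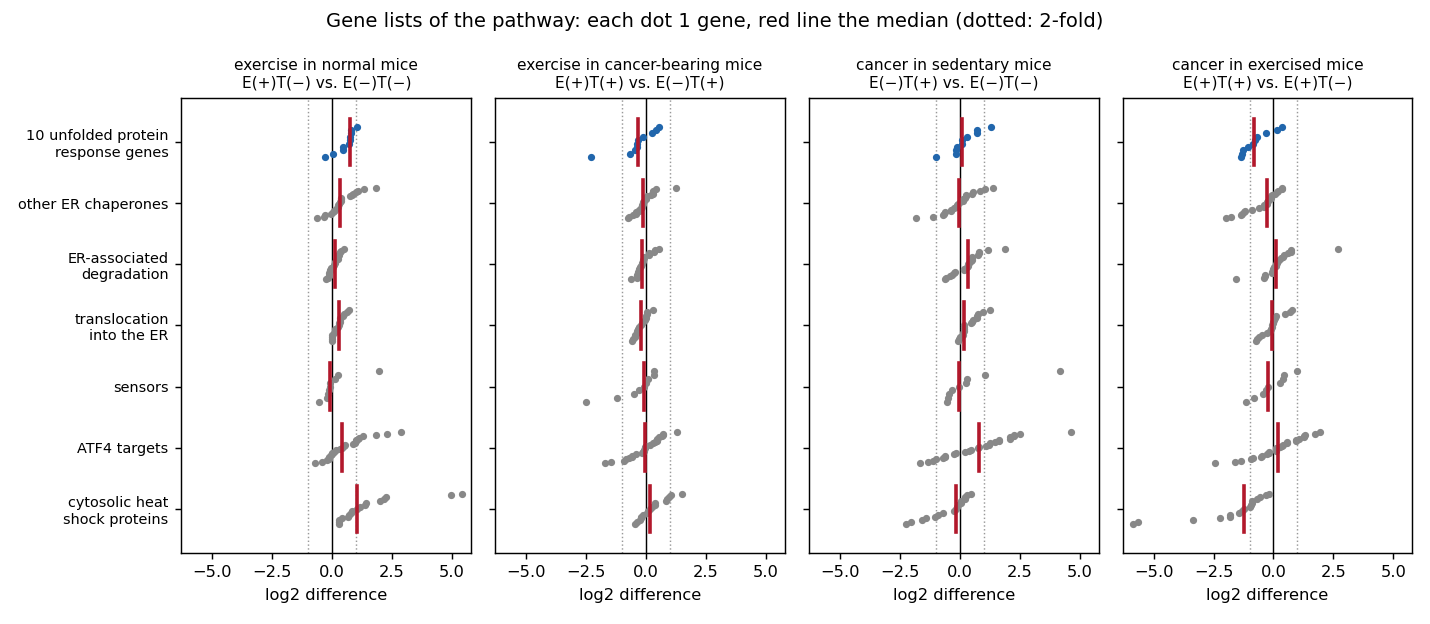
Log2 differences (x axis) of the genes of 7 lists (y axis) in the 4 comparisons, 1 dot per gene that reached 4 normalized reads in 1 of the 2 libraries, with a red line at the median of each list and dotted lines at 2-fold. With exercise in normal mice the median of the 10 genes is 0.72, and with cancer in sedentary mice it is 0.09 beside 0.79 for the ATF4 targets.

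The gene lists of the ER were also set beside the cytosolic heat shock proteins, which answer misfolded protein outside the ER. With exercise in normal mice, all 17 cytosolic genes were higher beyond counting error, with a median of 1.04, and 9 of them were called, against 5.88% of all genes. With exercise in cancer-bearing mice, 11 were higher and 6 lower, with a median of 0.18 and 2 called higher, against 9.39% of all genes. The median with cancer in sedentary mice was −0.17, with 11 lower and 5 called lower, against 13.1% of all genes. Hspa1a and Hspa1b were higher by 5.397 and 4.96 with exercise in normal mice, whereas Hspa1b stood at −2.24 (−3.09 to −1.53) with cancer in sedentary mice. As near-identical copies their division of reads is uncertain. With cancer in exercised mice, all 17 were lower, with a median of −1.24 and 9 called, against 11.1% of all genes. The difference between the ER and the cytosolic lists was not tested.

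The genes with the pattern most like that of Hspa5 were named by the Euclidean distance between log2 differences from E(−)T(−) in the 3 other libraries, over 4 libraries and 7073 genes whose mean was 100 normalized reads or more. They were Jmjd6 at a distance of 0.22, Btaf1 at 0.24, Sertad1 at 0.29, Acot8 at 0.29 and Pdia3 at 0.30. Pdia3 is a disulfide isomerase that works with calreticulin, and its differences in these libraries were 0.82 with exercise alone, 0.22 with cancer alone and 0.21 with both. Among the 10 genes, the nearest to Hspa5 were Xbp1 at 0.70 and Calr at 0.79, and the farthest was Trib3 at 2.44.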

How the data were processed

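The heart mRNA-seq data of the 4 groups were analyzed, with 1 library per group. The authors deposited log2 values of normalized read counts, with 1 added to each count. Per the methods of the study and the submitters' processing notes, QuantSeq 3′ reads were aligned with Bowtie2 to mm10, counted per gene with Bedtools and normalized by a quantile method of edgeR in R. To recover whole reads, the sizes of the libraries and 1 dispersion, 0.149, were fitted in a quantile-adjusted negative binomial model. It gave the deposited values back within 0.000514, and 100% of 25460 values of 5 to 99 reads came out whole to within 0.1 read. The recovery, and the calls for exercise in normal mice, were tested on simulated data. Reads of 3′ ends do not scale with transcript length.

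Differences were taken between deposited values, on a log2(value + 1) scale that understates changes of genes with few reads. Calls needed a fold change of 2 and a normalized read count of 4 in at least 1 library. With 1 library per group there is no spread between replicates, and no test across conditions was made. Intervals are 95% Clopper-Pearson intervals of read ratios at the fitted sizes. Genes of other lists were named when among the 3 largest absolute differences of a list in a comparison with a mean of 16 normalized reads or more. The genes and lists were chosen with earlier results of these data known. Where a symbol stood on several rows (35 symbols, none of the 10 genes), the row with the highest mean was used. Promoter windows are those of RefSeq on GRCm38.p6, the assembly of mm10, and 10 of the 10 genes matched. Gene positions are those of GENCODE M21. Protein sequences were not used here. Alternatives covered the scaling, pseudocount, minimum and fold. The computation used Python 3.11.15 with scipy 1.17.1, numpy 2.4.6 and pandas 2.3.3, and figures were drawn with matplotlib 3.10.9.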

Additional observations from a re-analysis of the deposited data

Results flagged for a closer look

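For 6 of the 10 genes, the difference with exercise had opposite signs with and without cancer, each beyond counting error, and the difference between the effects was not tested because each group has 1 library. The effect in cancer-bearing mice minus that in normal mice was −1.17 for Atf4, −1.165 for Hsp90b1, −1.11 for Dnajb9, −1.03 for Xbp1, −0.92 for Ddit3 and −0.87 for Calr, on the log2 scale.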

How the results depend on the processing

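Of the 40 log2 differences of the 10 genes in the 4 comparisons, all stayed within their counting interval with pseudocounts of 4 or 0.25, with a trimmed mean scaling and with duplicated symbols summed. Under library size scaling 23 moved outside it and 8 changed sign, and in the scalings without genes over 1% of a library and without globin genes 11 and 10 moved and 4 changed sign in each. Library size scaling shifted the median of all genes by −0.58 with exercise in cancer-bearing mice and by −0.71 with cancer in exercised mice. There 3 and 8 of the 10 genes were called lower, beside 3603 and 4995 over all genes. The median difference of all 10, which includes this shift, was −0.93 and −1.53. The median with cancer in sedentary mice was −0.060 under this scaling and −0.074 without globin genes, and that with cancer in exercised mice was −0.99 without genes over 1% of a library and −0.99 without globin genes. With a fold change of 1.5, 6 of the 10 genes were called higher with exercise in normal mice, beside 1647 of 13930 genes. With cancer in sedentary mice 3 were called higher, beside 3431 of 14311 genes. At this fold change, 2 were called lower with exercise in cancer-bearing mice and 7 with cancer in exercised mice. The counts over all genes for these lower calls are not given here. With a pseudocount of 4, the number called lower with cancer in sedentary mice was 0. By the interval, a rule added after the data were seen, 8, 3, 4 and 2 genes were higher and 0, 7, 4 and 8 lower in the 4 comparisons in the order of the report. Over all genes, the 819 called higher and 892 called lower with exercise in normal mice ran from 376 to 2346 and from 406 to 2096 over the settings. In cancer-bearing mice, library size scaling moved the 1348 higher and 1440 lower to 535 and 3603, and with cancer in exercised mice it moved 1709 and 1579 to 796 and 4995. With cancer in sedentary mice, 2085 and 1868 became 3431 and 3390 at a fold change of 1.5. The causes were not tested beyond what each rule changes by construction. No library could be left out, and no paired analysis was possible because each group has 1 library. Depth limits genes with few reads, such as Trib3, Ern1 and Chac1.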

Other observations

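Mitochondrial chaperones and proteases serve protein folding in another compartment, and none of the 9 was called in any of the 4 comparisons. Over all genes, 5.88% to 14.6% were called higher and 6.4% to 13.1% lower in these comparisons. Of those with a mean of 100 normalized reads or more, 1.26% to 7.59% were called higher and 0.495% to 6.93% lower. Of them, 8 were higher with exercise in normal mice, 3 of them beyond counting error, with a median of 0.07, and Hspe1 was higher by 0.70 (0.58 to 0.81). With exercise in cancer-bearing mice all 9 were higher, with a median of 0.30, and under library size scaling the median was −0.28 beside −0.59 for all genes. Clpp stood at 0.60 (0.43 to 0.78). With cancer in sedentary mice 8 were lower, with a median of −0.21 and Hspd1 at −0.77 (−0.88 to −0.65).

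Of 6 genes for kinases and phosphatase subunits that set the phosphorylation of eIF2α, 1 was called higher with cancer in sedentary mice, against 14.6% of all genes. This was Ppp1r15a, which codes for the inducible phosphatase subunit GADD34, at 1.21 (0.97 to 1.47). With cancer in exercised mice it was again the only gene called higher, at 1.33 (1.13 to 1.54), against 12% of all genes. Eif2ak3 was called lower there, at −1.16 (−2.31 to −0.24) on 12 reads against 34, against 11.1% of all genes. It was also called lower with exercise in cancer-bearing mice, against 10% of all genes. The kinase gene Eif2ak4 stood at 0.98 (0.26 to 1.81) with cancer in sedentary mice. The median of the 6 genes lay between −0.05 and 0.13 in the 4 comparisons.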
